A study of Homo sapiens with 16 samples.

Results

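Gene expression was compared between 4 samples that received siFOXA1.1, a small interfering RNA (siRNA) directed against FOXA1, and 8 samples that received a control siRNA, over the bladder cancer cell lines RT112 and SCaBER. These are 12 of the 16 samples of the series, chosen by the cell line and siRNA in their labels. The remaining 4 samples received a different siRNA against the same transcript, siFOXA1.2, and enter only where the siRNAs are set against each other. Each line contributed 2 samples with siFOXA1.1, 2 with siControl.1 and 2 with siControl.2, and the replicate numbers 1 and 2 stand for batches of the experiment. Every culture was transfected with Lipofectamine RNAiMax at 10 nM siRNA, so the controls share the transfection and differ in the siRNA. RT112 grew in RPMI and SCaBER in DMEM, both with fetal bovine serum, and line and medium cannot be told apart.

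The study takes RT112 as a model of luminal and SCaBER as a model of basal, squamous-like bladder cancer. GATA3, a luminal urothelial transcription factor, had 425 to 467 CPM (counts per 1e+06 counts of the sample) in the RT112 controls and 7.79 to 18.1 CPM in the SCaBER controls. KRT14, a keratin of basal cells, had 2.26 to 3.61 CPM in the RT112 controls and 379 to 785 CPM in the SCaBER controls. KRT20, a keratin of terminally differentiated luminal cells, had no count in any of the 12 samples. Both lines are established tumour lines in culture, and siFOXA1.1 is a single sequence. What it does by lowering FOXA1 and what it does by other routes cannot be told apart within the comparison.

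FOXA1 is a pioneer transcription factor that opens chromatin at enhancers and is known for holding luminal epithelial identity. The response to siFOXA1.1 is described below mainly through systems with known wiring. In the interferon system, sensors of foreign RNA or DNA induce interferons, whose receptors act through JAK kinases on a transcription factor complex that holds STAT2 and IRF9, and this complex switches on antiviral effector genes through a short DNA element. In proliferating cells, E2F factors drive the genes of DNA replication, and the MuvB complex with MYBL2 and FOXM1 drives the genes of mitosis through another short element.

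Library totals ranged from 4528513 to 7604581 counts over the 16 samples, and a floor of 3 counts in a sample corresponded to 0.394 to 0.662 CPM, which covers counting error alone. Both lines were fitted together in edgeR with cell line as a covariate, and a gene was called at an adjusted p under 0.05. Unless a line or another comparison is named, log2 fold changes are fitted differences, siFOXA1.1 relative to control, as a change common to both lines. Where the lines differ, this need not equal the mean of their separate fits. Nothing in the labels says that samples came from separate cultures, so the p-values measure the spread between these samples, which may be technical. Mitochondrially encoded genes took 25.7% and 28.2% of the counts in the RT112 siFOXA1.1 samples and 18.0% to 21.2% in the RT112 controls. In SCaBER the share was 11.9% in both siFOXA1.1 samples and 10.3% to 11.4% in the controls.

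FOXA1 (ENSG00000129514, chromosome 14, 37589552 to 37595249 in GRCh38.p14) was lower under siFOXA1.1 in RT112, and in SCaBER it lay near the floor. In RT112 it had 1.32 and 3.24 CPM under siFOXA1.1. The RT112 controls had 35.0 and 29.4 CPM with siControl.1 and 18.2 and 28.4 CPM with siControl.2. In SCaBER it had 0 and 0.434 CPM under siFOXA1.1, which is at most 3 counts. The SCaBER controls had 0.499 and 0.623 CPM with siControl.1 and 2.43 and 1.99 CPM with siControl.2, that is 3 to 15 counts. The siFOXA1.1 samples were below every control of their line in CPM, although SCaBER lay near the floor throughout. In SCaBER the closest siFOXA1.1 and control samples had 3 counts each, so their order rests on the library totals alone. Over both lines the log2 fold change was -3.20 (SE 0.61, edgeR adjusted p = 0.0012), and a two-sided exact permutation test within lines gave p = 0.00444, the smallest that its arrangements allow. SCaBER alone gave -2.48 (edgeR adjusted p = 0.533), so the call rests on RT112. Under siFOXA1.2 FOXA1 had 9.18 and 16.0 CPM in RT112 and 0 and 0.951 CPM in SCaBER.

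**Figure D1:**
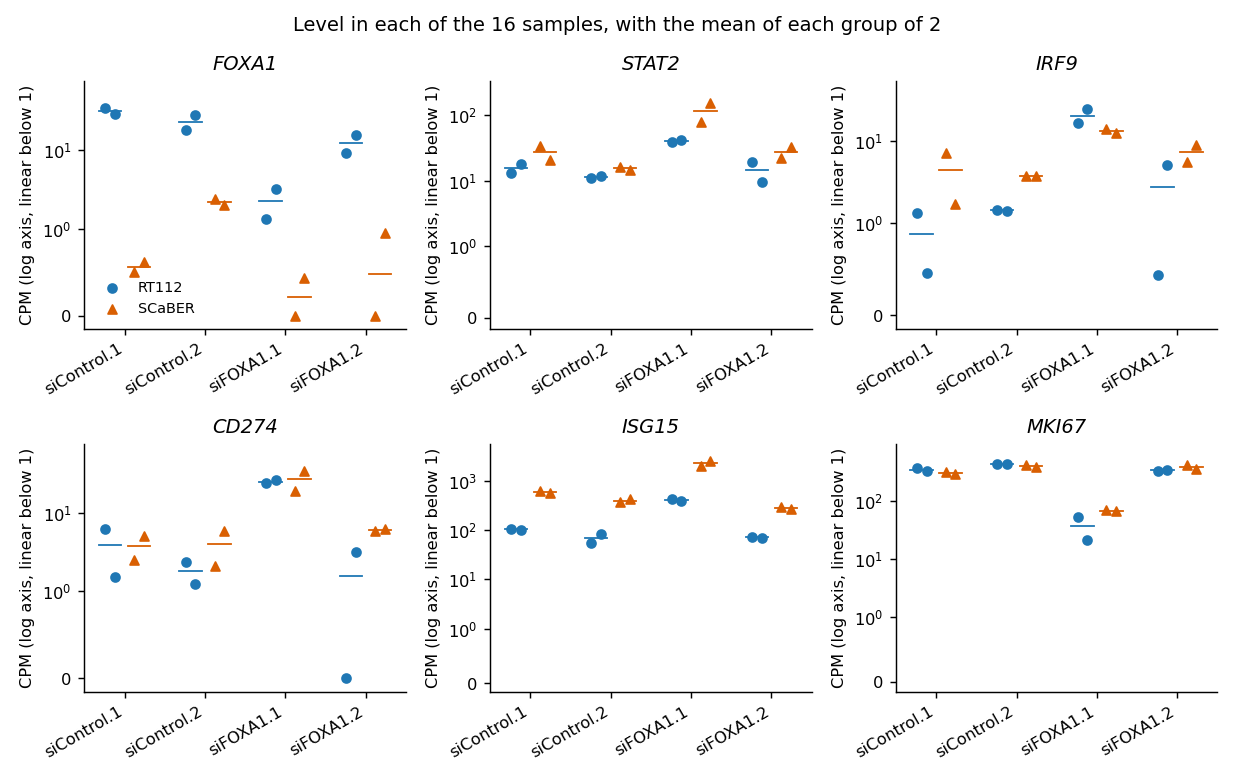
Level of 6 genes in each of the 16 samples (vertical axis, CPM, logarithmic above 1 and linear below), by siRNA (horizontal axis), with RT112 as circles, SCaBER as triangles and the mean of each pair of samples as a bar. STAT2, IRF9, CD274 and ISG15 stand higher under siFOXA1.1 than in every control of the same line, and FOXA1 and MKI67 lower. For FOXA1 in SCaBER the closest samples had equal counts and differ by library total.

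The response to siFOXA1.1 was broad and went both ways. Of 13168 genes tested, 2680 were called (20.4% of all tested), 1267 higher (9.62%) and 1413 lower (10.7%). These shares are the background for the counts per gene list below. A gene was counted in the common response when it was called and both siFOXA1.1 samples lay outside the range of the 4 controls on the same side in each line. The common response held 660 higher genes (5.01% of all tested) and 992 lower genes (7.53%), together 61.6% of the called genes. Ranges were compared in CPM on library totals, while the calls used TMM scaling between samples. TMM factors were 0.952 and 0.918 in the RT112 siFOXA1.1 samples and 0.990 to 1.04 in the RT112 controls. CPM thus sets these siFOXA1.1 samples lower than the fit does. Called without TMM scaling, 1021 genes were higher and 1621 lower. Its part in the surplus of lower common genes was not tested. Without the condition on the call, groups failed to overlap in both lines for 5.48% of genes on the higher side and 8.80% on the lower side. Among the common genes 324 rose by more than 1 on the log2 scale and 606 fell by more than 1, with medians of 1.00 and -1.19. Over all genes tested the median log2 fold change was -0.03. In bulk RNA, fewer cells of a kind and less RNA per cell cannot be told apart.

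Fitted in each line separately, the fold changes of 11407 genes had a Pearson correlation of 0.378 and a Spearman correlation of 0.461 between RT112 and SCaBER. Genes are not independent, and the correlation describes these profiles only. The difference between the lines passed the test for 181 genes (1.37% of all tested), including 42 of the common genes. For 37 of those 42 the change was larger in RT112.

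**Figure D2:**
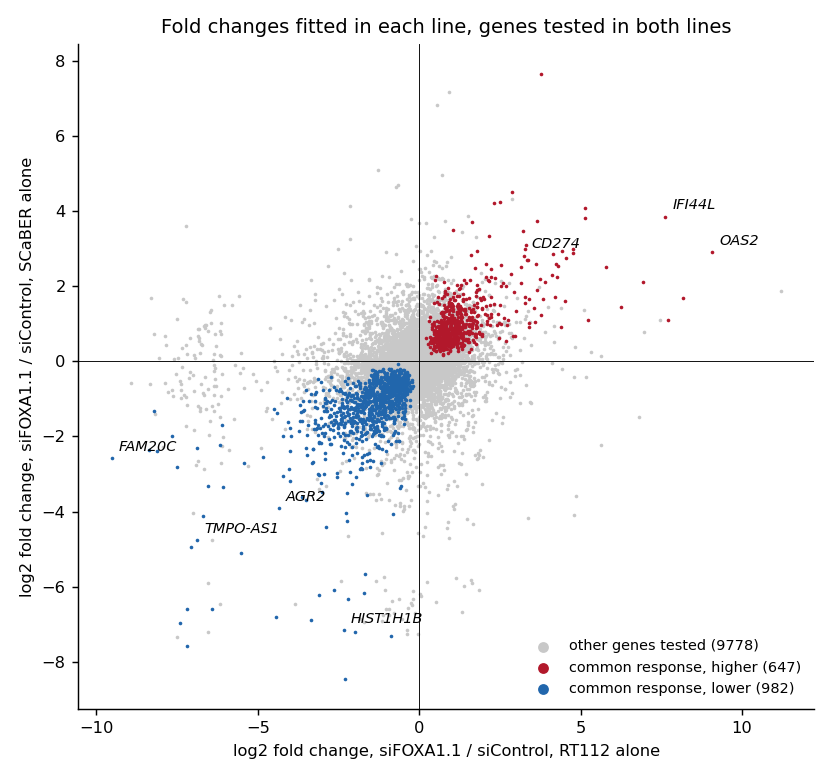
Log2 fold change of siFOXA1.1 against siControl fitted in RT112 alone (horizontal axis) and in SCaBER alone (vertical axis), each point a gene tested in both lines, with the common response in colour. OAS2 and IFI44L lie far to the right because their RT112 controls were at or near 0, where fitted values depend on the prior count.

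STAT2 and IRF9, transducers of interferon signals, rose, while the receptor chains tested (IFNAR1, IFNAR2, IFNGR1 and IFNLR1) did not pass the test. Of 17 genes tested in the list of interferon ligands, receptors and signalling, 6 were higher and 1 lower, with a median log2 fold change of 0.42. STAT2 (chromosome 12, 56341597 to 56360107), which carries the signal to the nucleus, had 39.0 and 42.3 CPM in RT112 and 80.1 and 153 CPM in SCaBER under siFOXA1.1. Controls had 10.8 to 18.1 CPM in RT112 and 14.4 to 33.9 CPM in SCaBER, and the log2 fold change was 2.11 (SE 0.26, edgeR adjusted p = 2.93e-05). IRF9 (chromosome 14, 24161265 to 24166565), the DNA-binding member of the complex, had 16.3 and 23.9 CPM in RT112 and 13.8 and 12.3 CPM in SCaBER. Its controls had 0.453 to 1.46 CPM in RT112 and 1.71 to 7.16 CPM in SCaBER, and the log2 fold change was 3.08 (SE 0.53, edgeR adjusted p = 0.000526). STAT2 and IRF9 were thus above every control in both lines. USP18, which dampens interferon receptor signalling, rose by 2.80 (SE 0.37), with 14.6 to 158 CPM under siFOXA1.1 and 3.29 to 25.96 CPM in the controls.

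The kinase TYK2 rose by 0.57 and the kinase JAK1 fell by 0.66 on the log2 scale, and neither was in the common response. The interferon gene IFNL1 was called at 3.28 (SE 1.17, edgeR adjusted p = 0.0456) on low counts. It had 2.78 and 0 CPM in RT112 and 5.11 and 10.8 CPM in SCaBER under siFOXA1.1, against at most 0.132 CPM in the RT112 controls and 0 to 4.05 CPM in the SCaBER controls. IRF1, a further interferon-responsive factor, stood at 0.00 and IFNAR1, a receptor chain, at 0.15, both without passing the test.

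Sensors of double-stranded RNA also rose. Of 22 sensing genes tested 12 were higher and 1 lower, 7 of the higher ones in the common response, with a median of 0.88. EIF2AK2, the kinase that halts translation on double-stranded RNA, had 237 and 300 CPM in RT112 and 214 and 307 CPM in SCaBER under siFOXA1.1. Its controls had 110 to 144 CPM in RT112 and 88.6 to 116 CPM in SCaBER, and the log2 fold change was 1.24 (SE 0.13, edgeR adjusted p = 9.44e-06). IFIH1, the sensor MDA5, rose by 2.34 (SE 0.32), from 1.95 to 12.4 CPM in the RT112 controls and 55.2 to 102 CPM in the SCaBER controls to 29.1 and 36.7 CPM and to 244 and 285 CPM. DDX58, the sensor RIG-I, rose by 1.84 (SE 0.27), and DDX60L, a helicase related to it, by 1.63 (SE 0.21). MAVS, the adaptor below RIG-I and MDA5, was the exception and fell by 0.82 (SE 0.21, edgeR adjusted p = 0.00994), with 83.2 and 62.9 CPM in RT112 against 145 to 239 CPM in its controls. Among the oligoadenylate synthases, OAS1 stood at 2.82 in SCaBER alone and 0.24 in RT112 alone (edgeR adjusted p of the difference 0.0315), and OAS3 at 1.73 and 0.43 (0.0332). OAS2 differed the other way, with 2.90 in SCaBER alone and 9.07 in RT112 alone (0.0102), on RT112 controls at or near 0. The control siRNAs also differed in the sensing list, by a median of 0.49 with 3 of 22 members called higher under siControl.1.

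Interferon-induced effectors were the list with the largest share of higher members. Of 58 tested, 49 were higher and 0 lower, and 33 of these were in the common response. The median log2 fold change was 1.63, with 1.40 in RT112 alone and 1.60 in SCaBER alone. ISG15, a ubiquitin-like protein, had 422 and 392 CPM in RT112 and 1970 and 2583 CPM in SCaBER under siFOXA1.1. Its controls had 55.1 to 106 CPM (median 93.2) in RT112 and 365 to 629 CPM (median 505) in SCaBER, and the log2 fold change was 2.28 (SE 0.17, edgeR adjusted p = 2.86e-07). IFI6 had 1130 and 689 CPM in RT112 against 20.2 to 34.7 CPM in its controls, and 1925 and 2049 CPM in SCaBER against 111 to 225.3 CPM. That was a log2 fold change of 4.52 (SE 0.27, edgeR adjusted p = 4.6e-08). The siFOXA1.1 samples of both genes were above every control of their line.

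The promoters of ISG15 and IFI6 are shown as those of the 2 common effectors with the smallest p whose promoter holds the element that the complex with STAT2 and IRF9 is known to bind, searched for as GAAANNGAA on both strands. They are RefSeq sequences of GRCh38.p14, read 5′ to 3′ on the strand of the gene, 300 bases around the start, at chr1:1013247-1013546 on the plus strand for ISG15 and chr1:27672143-27672442 on the minus strand for IFI6. Capitals mark the matches, 3 in each, which overlap in ISG15.
ISG15: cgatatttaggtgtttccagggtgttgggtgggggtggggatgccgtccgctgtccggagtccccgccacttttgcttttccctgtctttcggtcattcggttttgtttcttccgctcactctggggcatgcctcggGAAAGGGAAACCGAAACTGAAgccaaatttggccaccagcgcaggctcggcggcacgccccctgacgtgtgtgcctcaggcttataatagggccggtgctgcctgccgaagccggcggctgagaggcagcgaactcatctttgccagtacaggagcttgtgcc
IFI6: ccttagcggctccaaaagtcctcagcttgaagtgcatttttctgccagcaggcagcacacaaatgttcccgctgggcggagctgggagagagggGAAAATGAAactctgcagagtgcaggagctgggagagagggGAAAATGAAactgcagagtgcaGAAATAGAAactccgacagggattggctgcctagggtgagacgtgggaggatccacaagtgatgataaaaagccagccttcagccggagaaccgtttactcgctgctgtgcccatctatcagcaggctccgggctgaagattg
Of the effectors tested, 44 had a promoter in the RefSeq table, and 31 of these (70.5%) held a match. Among all genes tested 606 of 9551 promoters (6.34%) held one, among all promoters listed there were 2264 of 27305 with one (8.29%), and among the mitosis genes 4 of 49 (8.16%). In the common response as a whole the share was 9.13% of 526 promoters for the higher genes and 5.35% of 767 for the lower genes. A match describes these letters in this window and not binding.

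Other effectors followed with values of the same kind. HELZ2, an interferon-induced helicase, rose by 2.34 (SE 0.16), from 42.5 to 62.4 CPM in the RT112 controls and 34.9 to 47.4 CPM in the SCaBER controls to 211 and 218 CPM and to 202 and 306 CPM. IFIT1 and IFIT2, which bind viral RNA, rose by 3.83 (SE 0.35) and 2.56 (SE 0.23). MX2, a dynamin-like antiviral GTPase, rose by 3.44 (SE 0.43) and ISG20, an exonuclease, by 3.44 (SE 0.43). RSAD2, the antiviral enzyme viperin, rose by 3.32 (SE 0.44). IFITM3, which blocks viral entry, rose by 1.76 (SE 0.18), although its near-identical relatives make the assignment of reads uncertain. IFI44L had the largest fitted rise of the common response, 5.28 (SE 0.50), with 73.8 and 83.4 CPM in RT112 against 0 to 0.755 CPM, and 219 and 342 CPM in SCaBER against 9.74 to 27.0 CPM.

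Not every effector moved in both lines. MX1, a relative of MX2, had 2.49 and 11.6 CPM in RT112 under siFOXA1.1 against 4.34 to 8.06 CPM in its controls, which overlap. In SCaBER it had 653 and 845 CPM against 51.1 to 113 CPM, and the difference between the lines passed the test (adjusted p = 0.0279 in edgeR). IFI27 went the other way, with 62.4 and 17.1 CPM in RT112 against 0 counts in all 4 controls, and 56.8 and 421 CPM in SCaBER against 41.5 to 119 CPM. The line difference passed for 8 of the effectors.

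**Figure D3:**
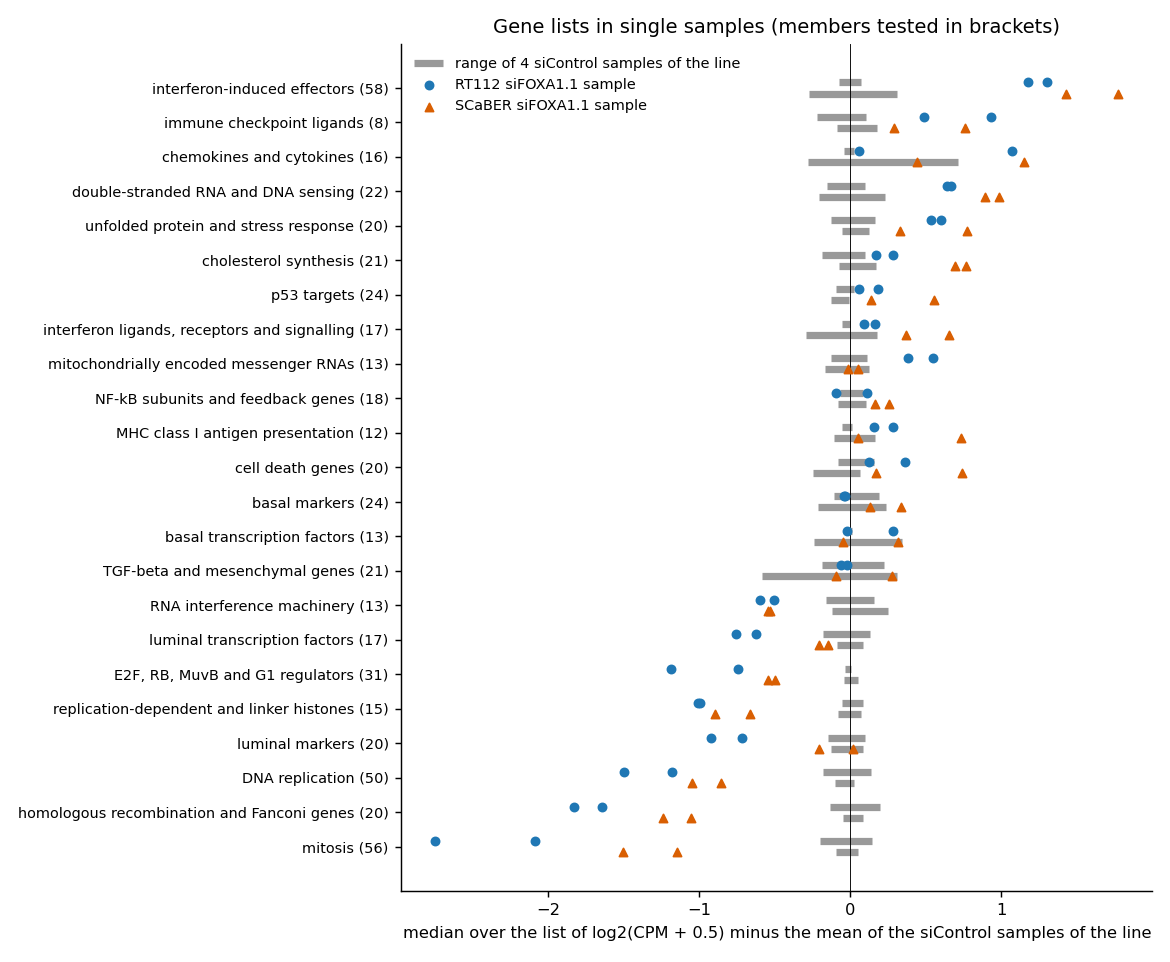
Median over each of 23 gene lists of log2(CPM + 0.5) minus the mean of the controls of the same line (horizontal axis), for each siFOXA1.1 sample of RT112 (circles) and SCaBER (triangles), with grey bars for the range of the 4 controls of a line. The interferon-induced effectors stand above the control range in all 4 siFOXA1.1 samples, and the mitosis, recombination and DNA replication lists below it. CPM is scaled to library totals, without TMM.

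Genes of antigen presentation moved little. Of 12 MHC class I genes tested 2 were higher and 1 lower, with a median of 0.39 and none in the common response. NLRC5, the activator of MHC class I genes, stood at 2.11 (SE 0.61, edgeR adjusted p = 0.0198), with 0.732 and 15.3 CPM in RT112 against 0 to 2.66 CPM, which overlap. With the batch number as a replicate block its adjusted p was 0.0559. PSME2, a proteasome activator, rose by 0.51 (SE 0.16), and TAPBPL, a peptide editor, fell by 0.79 (SE 0.26).

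CD274 (chromosome 9, 5450542 to 5470554), which encodes the checkpoint ligand PD-L1, was higher in both lines. It had 24.02 and 26.1 CPM in RT112 and 19.1 and 34.7 CPM in SCaBER under siFOXA1.1. Controls had 1.25 to 6.18 CPM (median 1.95) in RT112 and 2.11 to 5.96 CPM (median 3.82) in SCaBER, with no overlap. The log2 fold change was 3.03 (SE 0.41, edgeR adjusted p = 6.02e-05). Of 8 checkpoint ligand genes tested 5 were higher and 1 lower, with a median of 1.44. The median was 0.53 in RT112 alone, 0.84 in SCaBER alone, 0.80 without the filter on low counts and 0.65 on TPM values. LGALS9, the lectin galectin-9, rose by 2.24 (SE 0.32) and was the only other member in the common response, with 152 and 176 CPM in RT112 against 30.6 to 88.9 CPM and 119 and 118 CPM in SCaBER against 7.48 to 22.2 CPM. VTCN1, a B7 family ligand, rose by 2.68 (SE 0.66) on RT112, where it had 71.3 and 66.4 CPM against 5.74 to 13.8 CPM, while SCaBER had no count under siFOXA1.1. CD276, a further B7 member, fell by 0.87 (SE 0.27).

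Few secreted factors were measurable in both lines. Of 16 chemokine and cytokine genes tested 5 were higher and 0 lower. CXCL10, the interferon-induced chemokine that attracts T cells, had 2.34 and 1.33 CPM in RT112 against 0 counts in all 4 controls, and 23.1 and 46.7 CPM in SCaBER against 1.87 to 5.82 CPM. Its log2 fold change over both lines was 4.02 (SE 0.57, edgeR adjusted p = 8.38e-05). CSF1, a macrophage growth factor, rose by 2.06 (SE 0.53) and IL32, a cytokine, by 1.99 (SE 0.42), both in the common response. IL24, a cytokine of the IL10 family, had no count in RT112 and rose on SCaBER alone, from 1.14 to 7.33 CPM to 33.1 and 49.9 CPM.

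Of 18 NF-kB subunits and feedback genes, 7 were higher and 0 lower, with a median of 0.39. RT112 alone gave 6 higher and 3 lower with a median of 0.07, SCaBER alone gave no call, and on TPM values 4 were higher and 2 lower with a median of 0.20. TNFAIP3, the deubiquitinase A20, rose by 0.78 (SE 0.16) and NFKB2, a subunit of the non-canonical arm, by 0.81 (SE 0.21), both in the common response. CYLD, a deubiquitinase that restrains NF-kB, rose by 1.22 (SE 0.22) and RELB, the partner of NFKB2, by 1.48 (SE 0.44), and both overlapped the controls in SCaBER. NFKB1 and RELA, the canonical subunits, stood at -0.24 and -0.05 without passing the test.

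Genes of mitosis fell almost as a whole. Of 56 tested, 54 were lower and 0 higher, and 50 of these were in the common response, with a median log2 fold change of -1.78. The median was -2.39 in RT112 alone and -1.24 in SCaBER alone. MKI67, the proliferation antigen Ki-67, had 52.9 and 20.9 CPM in RT112 and 69.1 and 66.7 CPM in SCaBER under siFOXA1.1. Its controls had 323 to 438 CPM (median 400.3) in RT112 and 289 to 410 CPM (median 351) in SCaBER, and the log2 fold change was -2.78 (SE 0.25, edgeR adjusted p = 2.17e-06). ASPM, a spindle pole protein, had 22.1 and 22.4 CPM in RT112 against 145 to 160.5 CPM, and 55.1 and 70.9 CPM in SCaBER against 212 to 241.5 CPM. That was -2.22 (SE 0.17, edgeR adjusted p = 4.62e-07). For both genes the controls were several times higher than every siFOXA1.1 sample.

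The promoters of ASPM and MKI67 are likewise those of the 2 common mitosis genes with the smallest p whose promoter holds the cell cycle homology region, the short element through which the MuvB complex acts, searched for as TTTGAA on both strands. They come from the same RefSeq table, at chr1:197146620-197146919 on the minus strand for ASPM and chr10:128126374-128126673 on the minus strand for MKI67, with matches in capitals, 1 in ASPM, on the opposite strand, and 2 in MKI67.
ASPM: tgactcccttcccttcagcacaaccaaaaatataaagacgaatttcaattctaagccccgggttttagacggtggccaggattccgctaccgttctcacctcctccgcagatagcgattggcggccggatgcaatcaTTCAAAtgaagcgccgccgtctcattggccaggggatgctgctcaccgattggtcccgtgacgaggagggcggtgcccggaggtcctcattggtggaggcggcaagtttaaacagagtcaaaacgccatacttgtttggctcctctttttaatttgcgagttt
MKI67: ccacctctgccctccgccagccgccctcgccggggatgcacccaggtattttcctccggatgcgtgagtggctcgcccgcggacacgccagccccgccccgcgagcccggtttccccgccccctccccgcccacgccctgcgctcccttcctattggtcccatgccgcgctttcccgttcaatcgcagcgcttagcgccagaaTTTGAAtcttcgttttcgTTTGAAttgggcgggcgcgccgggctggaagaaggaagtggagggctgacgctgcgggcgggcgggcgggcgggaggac
Of the mitosis genes tested, 49 had a promoter in the table, and 36 of these (73.5%) held a match. Among all genes tested 909 of 9551 promoters (9.52%) held one, among all promoters listed there were 4212 of 27305 with one (15.4%), and among the interferon-induced effectors 5 of 44 (11.4%). The share was 15.9% of 767 promoters for the lower genes of the common response and 8.37% of 526 for the higher genes. Promoters with both elements numbered 4 among the mitosis genes and 4 among the effectors.

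HMMR, a spindle assembly factor, fell by 2.39 (SE 0.22) and UBE2C, the ubiquitin-conjugating enzyme of the anaphase-promoting complex, by 1.81 (SE 0.17). PLK1, a kinase of mitotic entry and exit, fell by 2.15 (SE 0.32), with 29.9 and 6.63 CPM in RT112 against 107 to 160 CPM and 65.9 and 35.4 CPM in SCaBER against 158 to 186 CPM. The 2 members without a call were CENPA, the centromeric histone, at -1.02, and BUB3, a checkpoint protein, at 0.28. The difference between the lines passed for 9 members (CDK1, CCNA2, AURKA, BUB1, CENPE, CENPF, NDC80, TPX2 and NCAPG), each of which fell more in RT112. CDK1, the kinase that drives entry into mitosis, fell by 2.93 in RT112 alone and by 1.00 in SCaBER alone (adjusted p of the difference 0.0226 in edgeR).

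DNA replication genes fell as well. Of 50 tested 34 were lower and 1 higher, with 32 of the lower ones in the common response and a median of -1.09. TYMS, which makes thymidylate, fell by 2.82 (SE 0.32), from 32.6 to 51.7 CPM in the RT112 controls and 48.8 to 80.7 CPM in the SCaBER controls to 4.98 and 1.62 CPM and to 9.85 and 14.2 CPM. RRM2, the small subunit of ribonucleotide reductase, fell by 2.81 (SE 0.34), from 323 to 359 CPM in the RT112 controls to 50.5 and 13.8 CPM, and from 74.0 to 118 CPM in the SCaBER controls to 27.8 and 10.4 CPM. CLSPN, the adaptor of the replication checkpoint, fell by 1.87 (SE 0.17) and GINS2, a part of the replicative helicase, by 2.07 (SE 0.24). PCNA, the sliding clamp, fell by 1.23 (SE 0.21) and MCM2, a helicase subunit, by 1.22 (SE 0.27), whereas MCM5, another helicase subunit, stood at -0.22 without a call. RFC1, the large subunit of the clamp loader, rose by 0.56 (SE 0.16) but overlapped its controls in SCaBER.

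Among the E2F, RB, MuvB and G1 regulators, 13 of 31 were lower and 1 higher. The factors that drive mitotic genes were among them: FOXM1 fell by 2.05 (SE 0.22) and MYBL2 by 2.46 (SE 0.31), and MYBL2 fell more in RT112 (adjusted p of the difference 0.0237 in edgeR). FOXM1 had 13.3 and 10.3 CPM in RT112 against 61.02 to 104.9 CPM, and 45.8 and 49.7 CPM in SCaBER against 132 to 174 CPM. SKP2, which targets inhibitors of cyclin-dependent kinases for degradation, fell by 1.99 (SE 0.19). CCNE2, the cyclin of entry into S phase, fell by 2.46 (SE 0.33) and TFDP1, the dimer partner of the E2Fs, by 1.87 (SE 0.24). RB1 and E2F4, parts of the repressing complexes, stood at 0.10 and -0.15 without a call, and CDK6, a G1 kinase, was the higher member at 0.62.

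Homologous recombination and Fanconi genes fell in 15 of 20 cases, 14 of them in the common response, with a median of -1.48. FANCA, a part of the Fanconi core complex, fell by 2.21 (SE 0.24), from 38.1 to 64.02 CPM in the RT112 controls to 6.88 and 9.28 CPM, and from 32.3 to 50.8 CPM in the SCaBER controls to 11.4 and 10.8 CPM. BARD1, a ubiquitin ligase subunit of the pathway, fell by 1.45 (SE 0.18), the chromatin remodeller HELLS fell by 1.197 (SE 0.18), and FANCD2 fell by 0.95 (SE 0.15).

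Histone genes went in both directions. Of 15 tested 8 were lower and 2 higher, and each of these 10 was in the common response. HIST1H4C, a replication-dependent histone, fell by 2.19 (SE 0.20), from 489 to 662 CPM in the RT112 controls to 155 and 73.1 CPM, and from 948 to 1078 CPM in the SCaBER controls to 297 and 154 CPM. The linker histones HIST1H1D and HIST1H1B fell by 3.63 (SE 0.65) and 3.52 (SE 0.68). HIST1H2AC rose by 3.76 (SE 0.40), with 135 and 108 CPM in RT112 against 4.08 to 8.12 CPM and 17.4 and 53.7 CPM in SCaBER against 2.18 to 8.65 CPM, and HIST1H2BD rose by 1.93 (SE 0.31). Near-identical histone copies make the assignment of their reads uncertain. The libraries were primed with oligo dT on poly(A) tails, so these counts describe RNA captured that way and not total histone RNA.

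**Figure D4:**
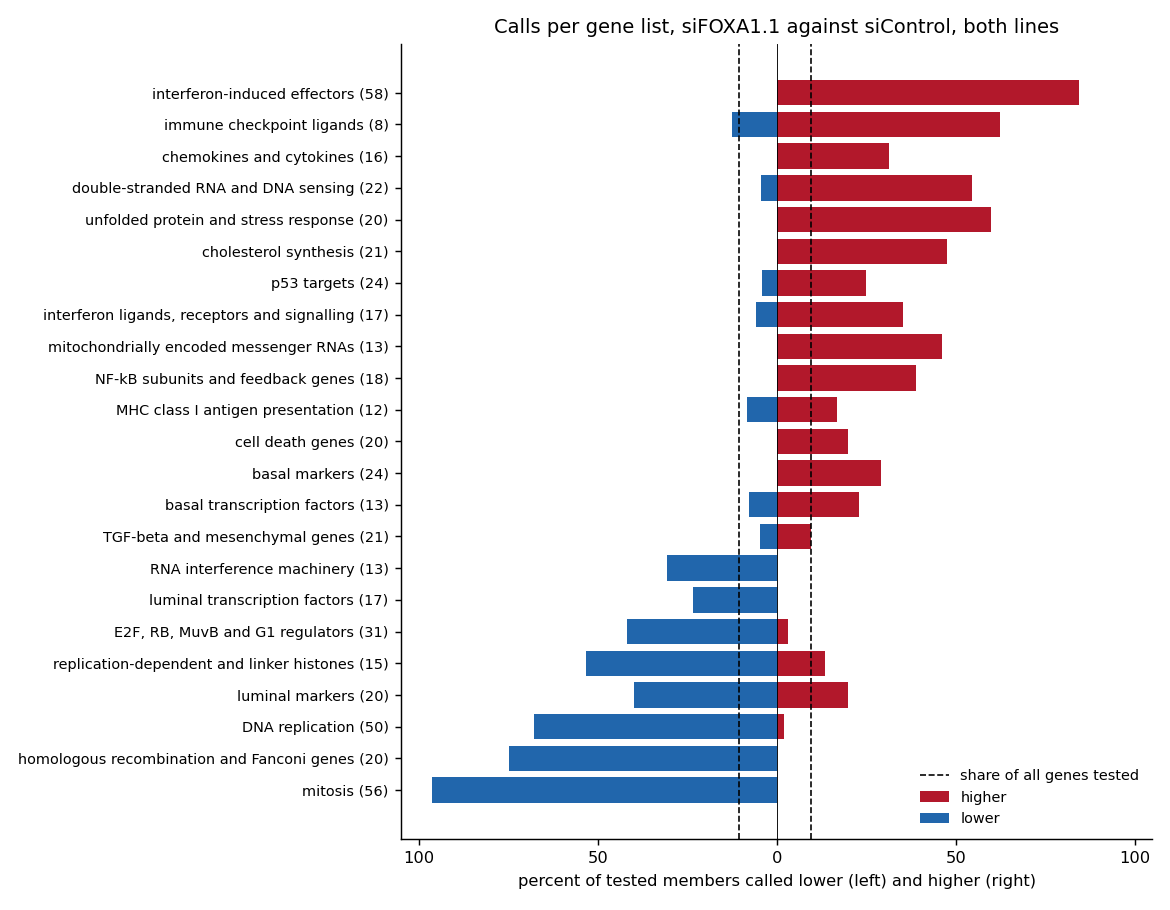
Percent of the tested members of each gene list called lower (left) and higher (right) under siFOXA1.1 over both lines, with dashed lines at the shares over all genes tested, 10.7% lower and 9.62% higher. Interferon-induced effectors reach furthest to the right and mitosis genes furthest to the left.

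Some regulators of luminal identity fell. Of 17 luminal transcription factors tested, FOXA1 left out, 4 were lower and 0 higher, with a median of -0.46. RT112 alone gave 7 lower and a median of -0.70, SCaBER alone 1 lower and -0.32. EHF, an ETS factor of epithelia, fell by 0.91 (SE 0.26) and was the only one in the common response. KLF5 fell by 1.27 (SE 0.27) and FOXQ1 by 1.31 (SE 0.36), with overlap in SCaBER for each. ELF3, an ETS factor of differentiated epithelium, stood at -0.54 (adjusted p = 0.0499 in edgeR), and with the batch number as a replicate block its adjusted p was 0.0542. GATA3 stood at -0.34 (adjusted p = 0.3 in edgeR). It had 219 and 235 CPM in RT112 under siFOXA1.1, below all 4 controls there, and 16.1 and 11.7 CPM in SCaBER, within the range of its controls. PPARG, the nuclear receptor of urothelial differentiation, stood at -0.52 (adjusted p = 0.101 in edgeR).

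Luminal markers split. Of 20 tested 8 were lower and 4 higher, with 2 of the lower ones in the common response and a median of -0.80 that was -0.78 in RT112 alone and -0.05 in SCaBER alone. AGR2, a protein disulfide isomerase of secretory cells, fell by 4.34 (SE 0.45, edgeR adjusted p = 7.38e-06), with 8.64 and 1.62 CPM in RT112 against 97.8 to 143 CPM. In SCaBER it had 0.189 and 0 CPM against 1.104 to 1.95 CPM, at most 12 counts. KRT18, a keratin of simple epithelia, fell by 0.83 (SE 0.12), from 1129 to 1449 CPM to 743 and 665 CPM in RT112 and from 719 to 959 CPM to 467 and 402 CPM in SCaBER. TFF1, a secreted trefoil peptide, fell by 3.63 (SE 0.72) on RT112 alone, since its SCaBER controls had no count. CDH1 (E-cadherin) and CLDN4, both of epithelial junctions, were higher by 1.04 (SE 0.18) and 0.91 (SE 0.20).

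Of 13 basal transcription factors 3 were higher and 1 lower, with a median of 0.06. The AP-1 subunits JUND and JUN rose by 0.99 (SE 0.13) and 0.95 (SE 0.15), both in the common response, while FOSL1, another AP-1 subunit, fell by 0.85 (SE 0.25). SOX9 stood at 0.88 (adjusted p = 0.0413 in edgeR), with an adjusted p of 0.0572 under the replicate block. TP63, the master factor of basal cells, stood at -1.01 without a call. Of 24 basal markers 7 were higher and 0 lower, with a median of 0.20, which turned to -0.00313 on TPM values and to -0.0802 in RT112 alone. ANXA1, an annexin, rose by 0.88 (SE 0.19) and KRT6B, a keratin of squamous cells, by 1.59 (SE 0.38), each overlapping its controls in at least 1 line. DSC2, a desmosomal cadherin, rose by 0.88 (SE 0.22) and was the 1 basal marker in the common response.

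Among 21 TGF-beta and mesenchymal genes 2 were higher and 1 lower. Neither count exceeded the share over all genes tested, 9.62% higher and 10.7% lower. TGFBR2, the type II receptor, fell by 2.11 (SE 0.32, edgeR adjusted p = 0.000191), with 13.9 and 15.0 CPM in RT112 against 50.6 to 60.2 CPM and 0.379 and 1.16 CPM in SCaBER against 4.05 to 8.92 CPM. CYR61, a matricellular gene, was higher by 2.26 (SE 0.52), with overlap in 1 line. ID1, an inhibitor of differentiation induced by BMP signals, fell by 3.63 (SE 0.32, edgeR adjusted p = 1.52e-06). It had 35.4 and 15.6 CPM in RT112 against 388 to 575 CPM and 8.33 and 19.7 CPM in SCaBER against 91.4 to 147 CPM.

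Of 20 genes of the unfolded protein and stress response 12 were higher and 0 lower, 5 of them in the common response, with a median of 0.65. RT112 alone gave 6 higher and SCaBER alone 1. Set against siFOXA1.2, 3 of the 20 were higher, with a median of 0.36. Under siFOXA1.2 against controls the median was 0.24 with 0 called. CALR, a chaperone of the endoplasmic reticulum, rose by 0.57 (SE 0.11), SESN2, a stress-induced regulator of metabolism, by 1.35 (SE 0.19) and DDIT3, the factor CHOP, by 1.26 (SE 0.37), all in the common response. HSPA5, the chief chaperone of this compartment, stood at -0.12 and ATF4 at -0.18 without a call. Of 21 cholesterol synthesis genes 10 were higher and 0 lower, 6 of them in the common response, with a median of 0.56. RT112 alone gave 5 higher and 1 lower, and SCaBER alone 8 higher. HMGCS1, at the head of the pathway, rose by 1.26 (SE 0.20), from 43.4 to 95.01 CPM to 124 and 160 CPM in RT112 and from 175 to 256 CPM to 345 and 697 CPM in SCaBER. IDI1, MSMO1 and DHCR7, enzymes further down, rose by 1.36 (SE 0.21), 1.32 (SE 0.20) and 0.90 (SE 0.12).

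Of the 13 mitochondrially encoded messenger RNAs 6 were higher and 0 lower, with 1 of them, MT-ND3 at 0.43 (SE 0.09), in the common response. The list median was 0.39, with 0.58 in RT112 alone and 0.13 in SCaBER alone. MT-ND2, a subunit of complex I, had 18638 and 20905 CPM in RT112 against 8413 to 10046 CPM, and 4228 and 5277 CPM in SCaBER against 3416 to 4747 CPM (adjusted p of the difference between lines 0.0277 in edgeR).

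Several of the largest changes of the common response lay outside these lists. MAP2, a microtubule-associated protein of neurons, rose by 4.62 (SE 0.72), with 83.2 and 112 CPM in RT112 against 0 to 2.26 CPM and 71.8 and 88.5 CPM in SCaBER against 16.1 to 22.1 CPM. TP53INP2, an autophagy regulator, rose by 3.70 (SE 0.64), from at most 1.25 CPM in the RT112 controls and 4.99 CPM in the SCaBER controls to 4.25 and 9.72 CPM and to 14.6 and 40.3 CPM. SALL4, a zinc finger factor of embryonic cells, rose by 3.40 (SE 0.77), and NEURL3, a ubiquitin ligase, by 3.37 (SE 0.76). ACSM3, PLA2G4C and FBXL19-AS1 rose by 4.14 (SE 0.91), 3.74 (SE 1.01) and 3.55 (SE 0.51), where ACSM3 had no count in the SCaBER controls and PLA2G4C none in the RT112 controls.

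Among the falls, PPDPF had 99.6 and 32.7 CPM in RT112 against 932 to 1359 CPM and 74.6 and 38.6 CPM in SCaBER against 412 to 712 CPM, a log2 fold change of -3.58 (SE 0.31, edgeR adjusted p = 1.62e-06). CHCHD10, a protein of the mitochondrial intermembrane space, fell by 3.62 (SE 0.27), from 109 to 134 CPM to 13.0 and 5.30 CPM in RT112 and from 35.8 to 62.8 CPM to 4.92 and 3.04 CPM in SCaBER. Both genes were highly expressed in every control and several times lower in every siFOXA1.1 sample. CBR3, a carbonyl reductase, fell by 4.93 (SE 0.77), from 5.26 to 14.0 CPM to 0.146 and 0 CPM in RT112 and from 6.23 to 15.7 CPM to 0 and 1.16 CPM in SCaBER. FAM20C, a kinase of the secretory pathway, had no count under siFOXA1.1 in RT112 against 8.15 to 18.0 CPM, and 13.6 and 7.81 CPM in SCaBER against 40.5 to 86.3 CPM.

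The largest fitted fall, -5.77 (SE 0.87) for TMPO-AS1, rests on 0 and 0.147 CPM in RT112 against 6.04 to 15.1 CPM and on 0 and 0.289 CPM in SCaBER against 2.34 to 7.79 CPM. CCDC189 (-5.39), LAPTM5 (-5.34), SCARNA9 (-4.32), CCDC33 (-3.70), ZBED5-AS1 (-3.63) and SPIRE2 (-3.58) were likewise near 0 under siFOXA1.1, and fitted values of that kind depend on the prior count. The counting set strand use automatically, so reads of FBXL19-AS1, TMPO-AS1 and ZBED5-AS1 and of their sense partners may not be told apart.

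Set against siFOXA1.2 directly, with 4 samples each and no shared control, siFOXA1.1 was higher for 747 of 12104 genes tested (6.17%) and lower for 780 (6.44%). The siFOXA1.1 samples are those compared with the controls above, so the comparisons are not independent. Of the effectors 39 were higher than under siFOXA1.2, with a median difference of 1.67, and of the mitosis genes 45 were lower, with a median of -1.70. STAT2 was higher by 1.85 (SE 0.29, edgeR adjusted p = 0.00162) and CD274 by 3.05 (SE 0.69, edgeR adjusted p = 0.0117). MKI67 was lower by 2.77 (SE 0.25, edgeR adjusted p = 6.74e-05). IRF9 differed by 1.90 (SE 0.66, edgeR adjusted p = 0.0767). FOXA1 itself, tested without the filter on low counts, differed by -1.82 (SE 0.96, edgeR adjusted p = 0.271), so a deeper fall under siFOXA1.1 was not shown over both lines. In RT112 it had 1.32 and 3.24 CPM under siFOXA1.1 and 9.18 and 16.0 CPM under siFOXA1.2, which do not overlap. In SCaBER it had 0 and 0.434 CPM and 0 and 0.951 CPM, near the floor. The difference in RT112 alone was not tested. Of 19 luminal markers tested 2 were higher and 2 lower than under siFOXA1.2, with a median difference of 0.00. In single RT112 samples the median of these markers relative to the controls was -0.92 and -0.71 under siFOXA1.1 and -0.39 and -0.32 under siFOXA1.2, which do not overlap, while in SCaBER the ranges overlapped.

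siFOXA1.2 against the same 8 controls gave 48 calls among 13156 genes (0.365%), 21 higher and 27 lower, with 1072 genes at an unadjusted p under 0.05. This comparison shares its controls with that of siFOXA1.1, and the values are given side by side only. The effectors had a median of -0.13 with 0 called and the mitosis genes a median of -0.12 with 1 called. STAT2 stood at 0.26, CD274 at -0.02 and MKI67 at -0.03. AGR2 fell by 1.76 (adjusted p = 0.0101 in edgeR), HPGD, a prostaglandin-degrading enzyme, by 2.12 and TFF1 by 4.42, beside -4.34, -2.68 and -3.63 under siFOXA1.1. These were the 3 luminal markers called under siFOXA1.2, and each was also called lower under siFOXA1.1, on levels measured mainly in RT112. With the same 8 controls in both comparisons the calls are not independent.

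The control siRNAs gave the background between sequences not aimed at FOXA1. Between siControl.1 and siControl.2, 124 of 12309 genes were called (1.01%), 69 higher and 55 lower. The effectors had a median difference of 0.32 and 2 called members higher under siControl.1, the sensing genes 0.49 and 3 of 22, and the mitosis genes a median of -0.11. ISG15 differed by 0.61 (adjusted p = 0.0462 in edgeR), against its rise of 2.28 under siFOXA1.1. MX2 differed by 1.74 (adjusted p = 0.028 in edgeR), against 3.44.

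**Figure D5:**
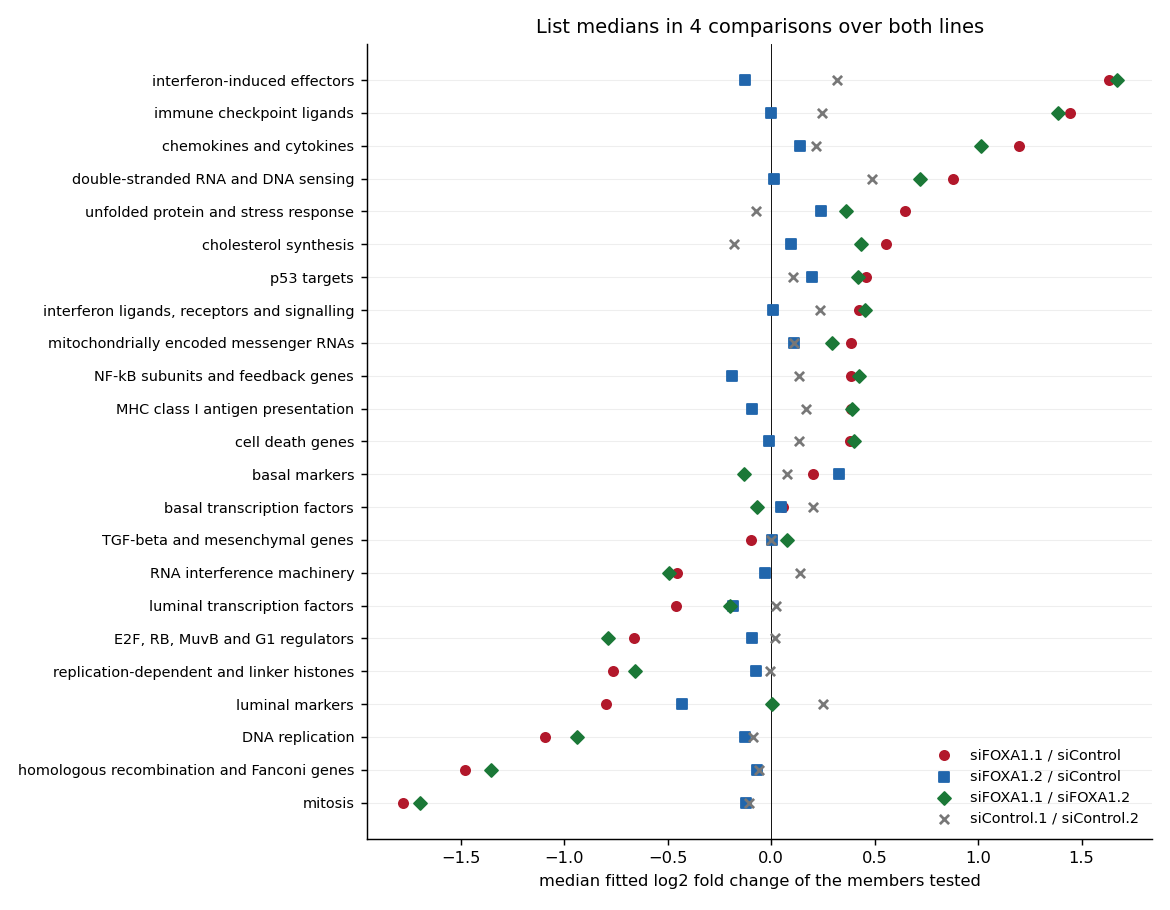
Median fitted log2 fold change over the tested members of each gene list (horizontal axis) in 4 comparisons over both lines, siFOXA1.1 and siFOXA1.2 against the same controls, the siFOXA1 siRNAs against each other, and the control siRNAs against each other. For the effectors and the mitosis genes the medians of siFOXA1.1 against controls (1.63 and -1.78) and against siFOXA1.2 (1.67 and -1.70) lie together, and those of siFOXA1.2 against controls (-0.13 and -0.12) near 0. The same siFOXA1.1 samples enter both of its comparisons, so these are not independent.

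Markers of other cells that a culture could hold were counted in part. Of 12 such markers PTPRC, CD3E and COL3A1, which define blood cells and fibroblasts, had no count in any sample. The endothelial genes PECAM1 and CDH5 reached 77 and 15 counts and passed the floor of 3 counts in 7 and 6 of the 16 samples, and the myeloid genes CD14 and LYZ reached 25 and 22 counts and passed it in 7 and 1. COL1A1, a collagen chain, was counted in all 16 samples and rose by 1.88 (SE 0.39) under siFOXA1.1, with 56.5 and 53.9 CPM in RT112 against 7.50 to 10.7 CPM and 9.47 and 20.4 CPM in SCaBER against 5.03 to 15.1 CPM. The summed level of the 12 markers was 56.9 to 62.8 CPM in the RT112 siFOXA1.1 samples and 10.4 to 17.7 CPM in the RT112 controls. In SCaBER it was 13.4 to 23.7 CPM and 5.52 to 17.6 CPM. Its part in the results was not tested.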

How the data were processed

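The data are 3' RNA-seq libraries of RT112 and SCaBER. The authors deposited raw counts per gene and TPM values (counts scaled by gene length to a common total) for 58721 genes. According to the labels and the configuration that came with the files, TrimGalore 0.6.2 trimmed the reads (minimum quality 20, minimum length 10) and STAR 2.6.1a aligned them to hg38 and counted them on GENCODE 29. The written methods give another build, so no coordinate from the deposited table was used.

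Samples were grouped by their labels. The counts were fitted with edgeR 4.0.16 in R 4.3.3 (filterByExpr, TMM, quasi-likelihood F test, Benjamini-Hochberg over all genes tested), with cell line as a covariate and the 2 control siRNAs pooled. FOXA1 did not pass the filter in the fit against siFOXA1.2 and was taken from a fit without it, a departure from the plan. The FOXA1 permutation test used log2(CPM + 0.5). Scripts were tested on simulated counts.

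Genes named are FOXA1, STAT2, IRF9 and CD274, the 15 highest and 15 lowest fold changes of common genes with a mean of at least 20 counts, up to 4 called members per list by smallest p, and members that a list's roles needed. COL1A1 was named after its values were seen. The members, the 23 gene lists and the tests were chosen with earlier results of these data known. Some genes that the rule names are not reported here.

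Alternatives were DESeq2 1.42.0, limma 3.58.1 on log2(TPM + 1) of the deposited TPM values, other scalings and filters, a control siRNA, line or batch alone, each sample left out, and the batch number as a replicate block. The labels name the number a batch, although the replicate 1 minus replicate 2 differences of the groups of a line correlated at -0.00859 to 0.00315 in RT112 and 0.00969 to 0.191 in SCaBER. The 2 replicates of each group differed by more than sampling noise, and other pairs were not compared.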

Additional observations from a re-analysis of the deposited data

Results flagged for a closer look

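Groups of 4 controls of a line were examined for the 34 genes named first (FOXA1, STAT2, IRF9, CD274 and the 30 largest changes), the library total and the mitochondrial share, and a single sample stood apart from the other 3 in 7 of 72 groups, each for a gene. No chance rate is given. A group with 3 samples at 0 is flagged by any count in the other sample, and a group without spread cannot be flagged. Each group also mixes the control siRNAs. In RT112 these were IRF9 at 0.453 CPM (others 1.32 to 1.46 CPM), OAS2 at 0.132 CPM and SALL4 at 0.266 CPM (others 0), and ID1 at 388 CPM (others 549 to 575 CPM). In SCaBER they were IFI6 at 225.3 CPM (others 111 to 122 CPM), ISG20 at 33.0 CPM (others 18.7 to 20.6 CPM) and ZBED5-AS1 at 14.7 CPM (others 5.30 to 6.65 CPM).

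The change under siFOXA1.1 differed between the lines by an interaction test in edgeR for 6 of these genes. The fold change in RT112 minus that in SCaBER was 3.77 for IFI44L (adjusted p = 0.0102), 4.82 for MAP2 (0.0046), 6.13 for OAS2 (0.0102) and 4.76 for SALL4 (0.049), which rose more in RT112. It was -6.83 for FAM20C (0.0228), which fell more in RT112, and 4.84 for HIST1H1B (0.042), which fell more in SCaBER. OAS2 and SALL4 had at most 2 counts in any RT112 control, FAM20C had no count in the RT112 siFOXA1.1 samples, and HIST1H1B had at most 1 count in the SCaBER siFOXA1.1 samples, so the size of these differences depends on the prior count.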

How the results depend on the processing

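The count of 2680 called genes stayed within 1.5 times (1822 to 2957 with 1 sample left out, 3301 in DESeq2, 2587 with the replicate block) but was 1464 with siControl.1 alone as control, 745 in SCaBER alone, 368 in batch 1 alone and 637 in batch 2 alone. RT112 alone, with 6 samples as in SCaBER alone, gave 3182, and the cause was not tested. In limma on TPM 700 genes were higher and 2005 lower, against 1267 and 1413, with a median over all genes of -0.15 against -0.03, and the cause was not tested. The common response held 1490 to 2304 genes with 1 sample left out and 1609 with the replicate block (1597 shared), while a call in each line separately left 507 genes, 505 of them shared. Leaving a sample out eases the condition of no overlap, so the range from 1490 to 2304 is not like for like with the main count. The largest count was without SCaBER siFOXA1.1 replicate 1. FOXA1 ranged from -3.58 to -2.75 with 1 sample left out and lost its call in SCaBER alone (-2.48) and in batch 2 alone (-2.49, edgeR adjusted p = 0.0859). The difference between lines was called for 510 genes in DESeq2, 520 without the filter, 280 on TPM and 191 with the replicate block, against 181. With 1 sample left out it was 60 to 219, with 60 and 111 without RT112 siFOXA1.1 replicates 2 and 1, 88 without SCaBER siFOXA1.1 replicate 1, 109 without either SCaBER siControl.2 replicate and 116 without RT112 siControl.1 replicate 1. siFOXA1.1 against siFOXA1.2 gave 826 to 2005 calls with 1 sample left out (841 and 826 without RT112 siFOXA1.2 replicates 1 and 2, 915 without RT112 siFOXA1.1 replicate 2) and 1137 with the replicate block. siFOXA1.2 against controls gave 158 calls in DESeq2, 227 without the filter and 18 to 64 with 1 sample left out, 18 and 19 without the RT112 siFOXA1.2 replicates. The controls against each other gave 314, 320 and, on TPM, 58 calls, and 48 to 193 with 1 sample left out, where each of the 8 omissions moved the count (193 without SCaBER siControl.1 replicate 2, 48 to 80 for the other 7). The effector median was 1.25 on TPM and 1.40 in RT112 alone, the mitosis median -2.39 in RT112 and -1.24 in SCaBER, and the basal marker median turned to -0.00313 on TPM and -0.0802 in RT112 alone. On TPM the medians of interferon signalling (0.20), class I presentation (0.16), chemokines (0.52), p53 targets (0.22), cell death (0.18) and cholesterol synthesis (0.36) were lower by over 1.5 times, and in RT112 alone those of chemokines (2.604), cell death (0.13) and cholesterol synthesis (0.35) moved by as much. Of the 34 genes named first, 0 changed direction, all 306 values from alternatives on all samples kept the call, 404 of 407 with 1 sample left out did, and 38 of 196 with a subset of samples lost it. Except for FOXA1, STAT2, IRF9 and CD274, these genes were chosen as the largest changes among genes called without overlap in these samples. Their kept calls and directions were largely set by that choice and are no separate support. Over all 115 named genes 31 of 1031, 65 of 1379 and 201 of 675 such values lost the call. The rest of the 115 were likewise chosen among called genes. The replicate block ended the calls of NLRC5, ELF3 and SOX9 and of no other named gene. Depth limits FOXA1 in SCaBER and genes whose samples are at or under 3 counts.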

Other observations

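Of 24 p53 targets tested 6 were higher and 1 lower, with a median log2 fold change of 0.46. SESN2, named above with the stress genes, is on both lists and counts among the higher members of each. Over all genes tested 9.62% were higher and 10.7% lower. BBC3, which encodes the death factor PUMA, rose by 1.95 (SE 0.39), with 62.5 and 102 CPM in SCaBER under siFOXA1.1 against 15.6 to 35.3 CPM in its controls, and overlap in RT112. PLK3, a stress-activated kinase, rose by 1.34 (SE 0.29) and was in the common response, while MDM2, the ubiquitin ligase of p53, stood at 0.07 without a call. Of 20 cell death genes 4 were higher and 0 lower, beside the same shares. CASP4, an inflammatory caspase, rose by 1.26 (SE 0.16), from 111 to 134 CPM to 210 and 258 CPM in RT112 and from 45.4 to 69.1 CPM to 125 and 185 CPM in SCaBER. MCL1, CFLAR and XIAP, which restrain cell death, rose by 0.70 (SE 0.17), 0.75 (SE 0.18) and 0.50 (SE 0.14). Only 2 of the 4 called cell death genes were in the common response, CASP4 among them. RT112 alone gave 4 higher and 1 lower, with a median of 0.13.

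Of the 13 genes of the RNA interference machinery 4 were lower and 0 higher, each of the 4 in the common response. Over all genes tested 10.7% were lower. DICER1, which cuts small RNA precursors, fell by 0.58 (SE 0.14) and DROSHA, which acts before it in the nucleus, by 0.57 (SE 0.15). PRKRA, a partner of DICER1, fell by 1.33 (SE 0.37) and TNRC6A, an effector of silencing, by 0.35 (SE 0.12). The argonautes AGO1 and AGO2 stood at -0.57 and -0.46 without a call. Under siFOXA1.2 TNRC6A was higher by 0.48 (adjusted p = 0.0375 in edgeR), and the difference between the siRNAs was -0.82 (adjusted p = 0.00352 in edgeR).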
